A study of Homo sapiens with 4 samples.

Results

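The IGF2BP, LIN28 and HMGA genes form an oncofetal module around the let-7 microRNAs. They are active in the embryo, and several of them, though not all, are largely silent in adult tissue and found again in tumours. The 7 genes described here (IGF2BP1, IGF2BP2, IGF2BP3, LIN28A, LIN28B, HMGA1 and HMGA2) were taken by gene symbol from an array table of 18377 genes. They were selected with levels from these same arrays in view (IGF2BP1 in REH and LIN28B in the translocation lines had been seen), so their levels are a description and carry no test. A total of 9 of 32968 probe sets carried a member's symbol. Of these, 7 carried that symbol alone and covered 6 of the 7 genes, and 2 carried a second gene as well. HMGA2 was present only on a shared probe set, together with ELAC2, and its value is therefore given for that probe set and not for the gene.

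The samples were 4 human B-cell precursor acute lymphoblastic leukaemia cell lines, each measured on 1 array of total RNA. The tumours behind RS4;11 and SEM had the t(4;11) translocation, which rearranges the MLL gene (KMT2A), hence translocation lines below. The precursor B-cell leukaemia lines NALM6 and REH lack it. All were grown in RPMI medium with serum, and each line is a single culture of 1 tumour's descendants, so any other difference between lines enters the comparison. Values are log2 probe-set levels after RMA (an array-wide background correction, quantile normalization and summary), and 1 unit is a 2-fold change. The lower quartile of all probe sets was 4.97 to 5.02 and the median 6.40 to 6.46. RMA gives no detection call, so whether a probe set near 5 detects its transcript is not known, and folds against such values are given as measured. Of 12 B-cell precursor markers, 10 had a probe set of their own. PAX5 lay between 11.61 and 11.90 and CD79A between 11.05 and 12.35 in the 4 lines. The 10 markers summed to 97.5 in RS4;11 and 81.0 in SEM, against 111.7 in NALM6 and 109.0 in REH. The precursor markers were not alike in all lines. MME (CD10) was at 5.54 in RS4;11 and 5.34 in SEM, against 12.48 in NALM6 and 12.56 in REH (limma, adjusted p = 0.0212), and was 1 of the 4 genes of the table that passed. DNTT, the terminal transferase, was at 6.88 and 5.11 in RS4;11 and SEM, against 11.54 and 12.43 in NALM6 and REH. CD24 was low in SEM alone, at 6.33, and VPREB1, a surrogate light chain, was at 11.35 in RS4;11 and 7.57 in SEM, against 10.86 in NALM6 and 5.51 in REH. CD79B and IGLL1 were also lowest in SEM, at 7.63 and 8.66, against at least 9.99 and 10.70 in the other lines. The part of these differences in the members' levels was not tested. All 8 T and NK cell markers and all 5 erythroid and megakaryocyte markers were dim, which means that their highest value lay below the median of all gene values, 6.75. So were all 5 pluripotent and germ cell markers, 3 of 6 myeloid markers and 5 of 9 stromal and epithelial markers. Over the whole table, 8118 of 18377 genes were dim. The myeloid markers not dim were LYZ, at 8.27, 8.50 and 9.65 in RS4;11, SEM and NALM6 and 5.80 in REH, MPO, at 7.57 in REH alone, and CSF1R, at 7.69 in SEM alone. The stromal and epithelial ones were VIM, KRT18, KRT8 and PDGFRB. PDGFRB was at 8.39 in RS4;11 and 9.29 in SEM, against 6.68 in NALM6 and 8.13 in REH.

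LIN28A and LIN28B are RNA-binding proteins that keep let-7 low: they hold the let-7 precursor through a cold-shock domain and zinc knuckles. In a route described for LIN28A, the terminal uridylyltransferases TUT4 and TUT7 then mark the precursor for decay by the exonuclease DIS3L2. Mature let-7 in turn represses LIN28B, HMGA2 and IGF2BP messages through sites that pair with its seed. IGF2BP1, IGF2BP2 and IGF2BP3 are KH-domain proteins that bind and stabilise messages, many of them marked with N6-methyladenosine (m6A). HMGA1 and HMGA2 are AT-hook proteins that bend DNA in chromatin. In blood formation LIN28B is a marker of fetal progenitors, and IGF2BP3 has been studied in leukaemia with MLL rearrangement.

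The let-7 sequences are shown because the members are regulators and targets of this family. In the RefSeq table (GRCh38.p14) the 12 let-7 family genes, miR-98 included, yield 9 different 5p microRNAs, and all 9 share 1 seed. Bases 2 to 8, the seed, are in capitals in the 3 mature sequences below, whose genes are described further on.
let-7a-5p: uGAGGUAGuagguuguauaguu
let-7c-5p: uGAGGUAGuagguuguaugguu
let-7g-5p: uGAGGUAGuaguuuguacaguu

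The zinc knuckles of LIN28 bind the letters GGAG in the let-7 precursor. These 4 letters, searched on the transcribed strand, were present in 9 of the 12 let-7 family hairpins and absent from those of let-7a-3, let-7b and miR-98. They are common, since 43.4% of 1560 human microRNA hairpins in the table hold them, and a match is no evidence of binding. Matches were taken anywhere in a hairpin. The second match of let-7c starts at base 80 of 84, at the very end, and is not to be read as like the first. The hairpins of let-7g (chr3:52268278-52268361, minus strand, inside the gene WDR82), let-7c (chr21:16539828-16539911, plus strand, inside MIR99AHG) and let-7a-3 (chr22:46112749-46112822, plus strand, inside MIRLET7BHG) show both cases, with GGAG in capitals.
let-7g: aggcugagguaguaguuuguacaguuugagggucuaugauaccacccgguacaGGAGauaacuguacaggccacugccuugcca
let-7c: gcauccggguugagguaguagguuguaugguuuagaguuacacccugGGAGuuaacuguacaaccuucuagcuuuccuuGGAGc
let-7a-3: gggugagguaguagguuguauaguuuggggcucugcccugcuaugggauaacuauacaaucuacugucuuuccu

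LIN28B, on chromosome 6, was at 7.30 in RS4;11 and 6.75 in SEM, against 5.04 in NALM6 and 5.31 in REH. Both translocation lines lay above both other lines, with 1.44 between the nearest values, and neither group of lines reached the other. The means were 7.02 ± 0.39 in the translocation lines and 5.18 ± 0.19 in the lines without it (SD, n = 2 each), a difference of 1.85 (limma SE 0.25), or 3.59-fold. The level in the translocation lines was moderate, with array percentiles of 58.4 in RS4;11 and 52.9 in SEM, against 26.8 in NALM6 and 34.3 in REH. In bulk RNA, a smaller share of expressing cells and less RNA per cell cannot be told apart. The gap of LIN28B ranked 113 among 18377 genes ordered by how far both translocation lines lay above both others. LIN28B in these lines had been seen when the members were chosen, so the rank is a description only.

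LIN28A, on chromosome 1, is the paralogue of pluripotent cells. Its first probe set was at 5.31 in RS4;11 and 5.28 in SEM, against 5.26 in NALM6 and 5.25 in REH. The second was at 4.76 and 4.56 in RS4;11 and SEM, against 4.60 and 4.70 in NALM6 and REH. Their spans over the 4 lines were 0.06 and 0.20, and no line stood apart. The difference between groups was 0.04 for the first probe set (limma SE 0.08), and it was -0.01 once arrays were centred on their medians. Of the 2 LIN28 paralogues, LIN28B parted the lines by the translocation label and the LIN28A values were nearly level. The array percentiles of LIN28A were 32.8 to 33.0 for the first probe set and 8.4 to 15.2 for the second. Whether such values detect LIN28A is not known, so they do not show that its RNA was alike in the lines.

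**Figure D1:**
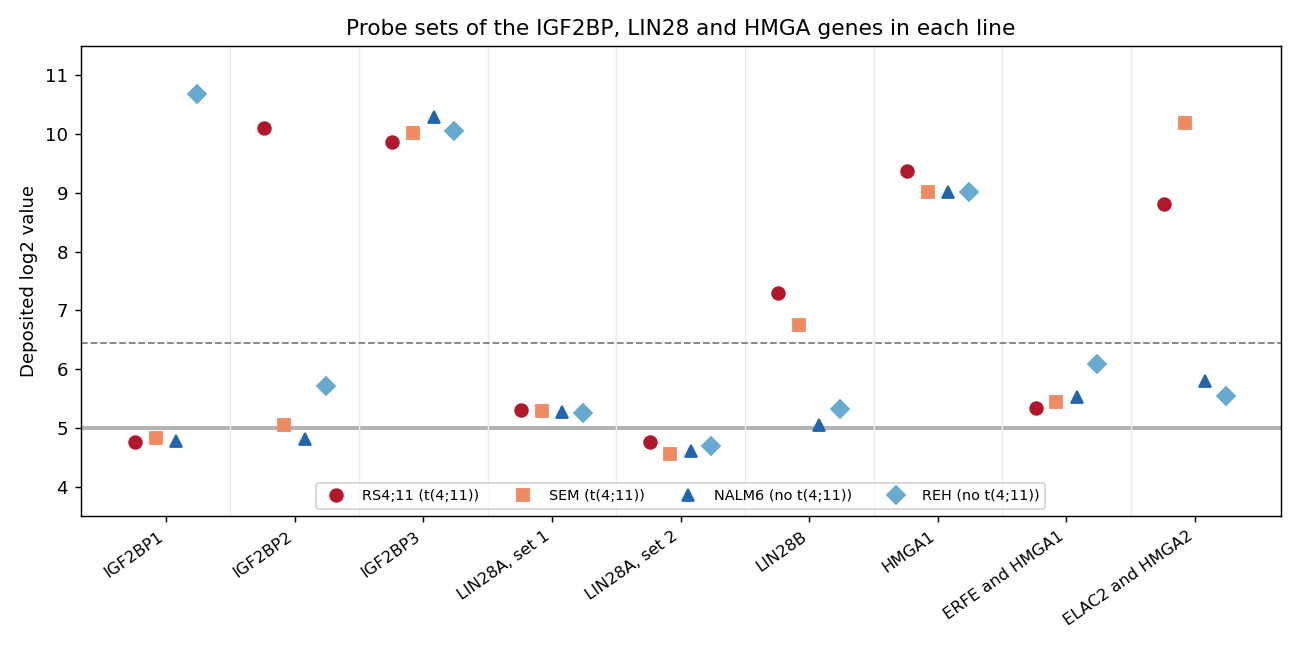
Deposited log2 values (y axis) of the 9 probe sets that carry a member's symbol (x axis) in the translocation lines RS4;11 and SEM and in NALM6 and REH, which lack it, with 1 point per array and no error bars. The grey band is the lower quartile of the arrays (4.97 to 5.02) and the dashed line their mean median. IGF2BP1 stands out in REH at 10.69 and IGF2BP2 in RS4;11 at 10.10, while LIN28B and the ELAC2 and HMGA2 probe set are higher in both translocation lines.

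The 3 IGF2BP paralogues had 3 different patterns. IGF2BP3, on chromosome 7, was bright in every line, at 9.86 in RS4;11 and 10.03 in SEM, against 10.29 in NALM6 and 10.06 in REH. Its whole span was 0.43, or 1.34-fold, and its group difference was -0.23 (limma SE 0.14). The groups of IGF2BP3 did not overlap, but only 0.03 separated their nearest values. Its array percentiles lay between 84.0 and 87.8.

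IGF2BP1, on chromosome 17, was at 10.69 in REH, against 4.76 in RS4;11, 4.83 in SEM and 4.77 in NALM6. REH alone was high, 5.86 above the next line or 57.9-fold, and the other lines were within 0.07 of each other at array percentiles of 14.9 to 19.3. By the gap of REH over all other lines IGF2BP1 ranked 5 among 18377 genes. Its level in REH had been seen when the members were chosen, so the rank is a description only. The group means of 4.80 ± 0.05 in the translocation lines and 7.73 ± 4.18 in the lines without it (SD, n = 2 each) differed by -2.93 (limma SE 2.29), and without REH the difference was 0.02. The contrast for IGF2BP1 thus rested on 1 line and not on the translocation label.

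IGF2BP2, on chromosome 3, was at 10.10 in RS4;11, against 5.05 in SEM, 4.82 in NALM6 and 5.71 in REH. RS4;11 alone was high, 4.39 above the next line or 21.0-fold, and the other translocation line lay below REH. By the gap of RS4;11 over all other lines IGF2BP2 ranked 5 among all genes. Since the members were chosen with levels from these arrays in view, this rank too is a description only. The means were 7.57 ± 3.57 in the translocation lines and 5.26 ± 0.63 in the lines without it (SD, n = 2 each), a difference of 2.31 (limma SE 1.99) that became -0.21 without RS4;11. The antisense gene IGF2BP2-AS1 was dim, at 5.09 in RS4;11 and 4.43 in SEM, against 4.11 in NALM6 and 4.41 in REH.

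Set side by side over the lines, bright IGF2BP3 was accompanied by bright IGF2BP2 in RS4;11 and by bright IGF2BP1 in REH, while IGF2BP1 and IGF2BP2 were both at or below 5.05 in SEM and NALM6. No line had both IGF2BP1 and IGF2BP2 above the median of its array. A level of one probe set cannot be set against that of another, so the summed amount of IGF2BP message per line is not given.

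HMGA1, on chromosome 6, was at 9.38 in RS4;11 and 9.01 in SEM, against 9.02 in both NALM6 and REH. RS4;11 was the only line apart from the others, by 0.36 or 1.28-fold, and the groups overlapped. The group difference was 0.18 (limma SE 0.16), and -0.01 without RS4;11. A second probe set shared by ERFE and HMGA1 was at 5.34 and 5.43 in RS4;11 and SEM, against 5.52 and 6.08 in NALM6 and REH. Its 1 RefSeq accession is that of ERFE, a hormone gene of iron metabolism, and its values are not read as HMGA1.

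The probe set shared by ELAC2 and HMGA2 was at 8.81 in RS4;11 and 10.19 in SEM, against 5.79 in NALM6 and 5.55 in REH. Both translocation lines lay far above the others, with 3.02 between the nearest values, and SEM was the highest line. The means were 9.50 ± 0.98 in the translocation lines and 5.67 ± 0.17 in the lines without it (SD, n = 2 each), a difference of 3.83 (limma SE 0.54 in the fit over all probe sets), or 14.2-fold. ELAC2, a tRNA-processing nuclease, also had a probe set of its own, which was at 10.22 in RS4;11 and 10.30 in SEM, against 10.25 in NALM6 and 9.62 in REH. That probe set spanned 0.68 over the lines and did not follow the shared one. Of 20 accessions listed for the shared probe set, 3 are RefSeq accessions, and all 3 match HMGA2 in the RefSeq table. The others were not matched, so the value stays that of the shared probe set. HMGA2-AS1, an antisense gene at HMGA2, was at 5.55 in RS4;11 and 5.60 in SEM, against 5.25 in NALM6 and 5.15 in REH, which is dim in all lines with a difference of 0.37 (limma SE 0.09).

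Over the 6 members with a probe set of their own, none passed limma's threshold of 0.05 after adjustment over all genes, beside 0.0218% of all genes, and 1 (LIN28B) was under 0.05 unadjusted, beside 9.39%. The groups did not overlap in 3 of the 6, IGF2BP3, LIN28A and LIN28B, beside 42.8% of all genes. LIN28B was the 1 member of which both translocation lines were at least 2-fold above both other lines, beside 0.963%, and no member was at least 2-fold below, beside 0.876%. A line stood at least 4-fold above each of the other 3 in 2 members, IGF2BP2 in RS4;11 (beside 0.163% of genes) and IGF2BP1 in REH (beside 0.756%). No member did so in SEM (beside 0.691%) or NALM6 (beside 0.424%). Since the members were chosen from these values, nothing is read from these counts.

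The genes next to the members in RefSeq order were examined for like patterns. GIP and B4GALNT2, on either side of IGF2BP1, stayed between 4.67 and 4.88 in every line, REH included. LIPH and TRA2B, beside IGF2BP2, spanned 0.29 and 0.24 over the lines. Neither gene beside IGF2BP1 or beside IGF2BP2 showed a rise of like size in its measured values. GIP, B4GALNT2 and LIPH lay below the lower quartile of the arrays in every line, where detection is not known. Only TRA2B was bright, at 11.48 to 11.71. LIN28B lies between HACE1, a ubiquitin ligase gene, and POPDC1. POPDC1 was at 9.66 in RS4;11 and 9.92 in SEM, against 8.70 in NALM6 and 8.90 in REH, which parts the lines as LIN28B does (difference 0.99, limma SE 0.15). HACE1 went the other way, at 9.55 and 9.35 in RS4;11 and SEM, against 9.90 and 10.29 in NALM6 and REH.

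Both neighbours of IGF2BP3 on the short arm of chromosome 7 were lower in the translocation lines. MALSU1, a mitochondrial ribosome assembly factor, was at 9.24 in RS4;11 and 9.26 in SEM, against 10.20 in NALM6 and 10.27 in REH. TRA2A, a splicing factor, was at 10.76 and 11.01 in RS4;11 and SEM, against 11.49 and 11.45 in NALM6 and REH. Their differences were -0.99 (limma SE 0.09) and -0.59 (limma SE 0.13), against -0.23 for IGF2BP3 between them. LLPH, next to HMGA2, differed by 0.33 (limma SE 0.14) and MSRB3 on the other side by 0.10 (limma SE 0.13), while the shared ELAC2 and HMGA2 probe set differed by 3.83.

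**Figure D2:**
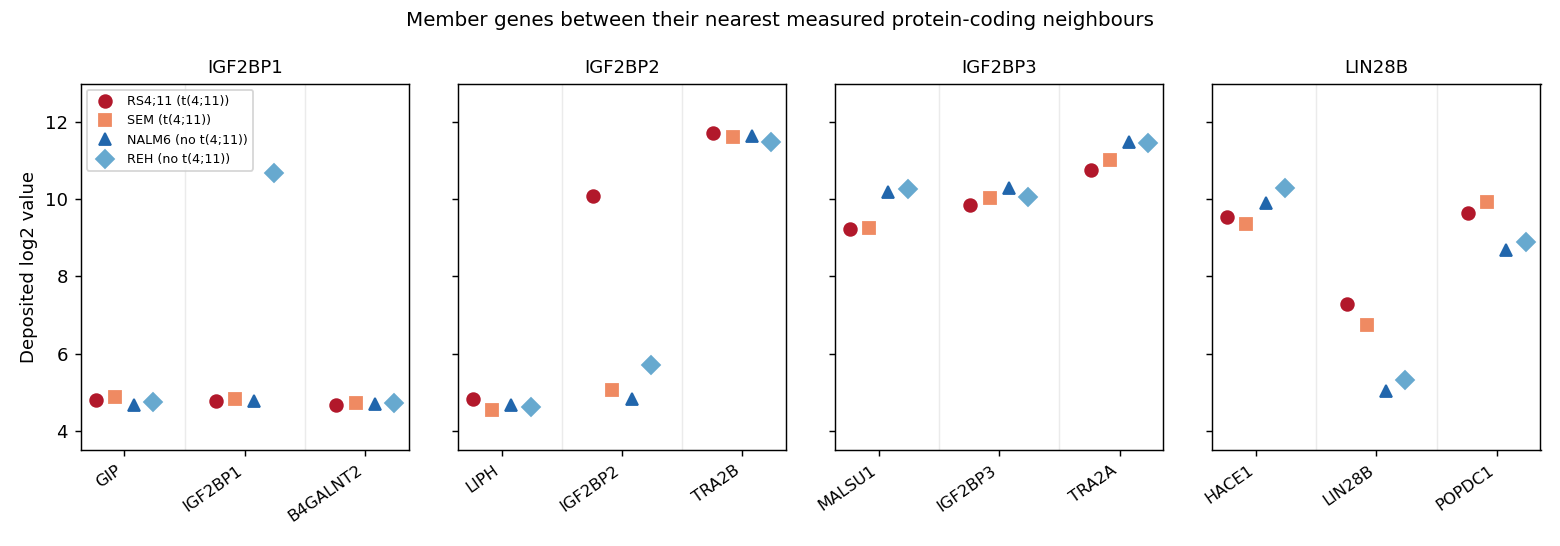
Deposited log2 values (y axis) of IGF2BP1, IGF2BP2, IGF2BP3 and LIN28B, each between the nearest measured protein-coding genes on either side (x axis), with 1 point per line and no error bars. The points of IGF2BP1 in REH (10.69) and IGF2BP2 in RS4;11 (10.10) stand alone, and the neighbours of IGF2BP3 are lower in the translocation lines.

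Genes with the most similar profile were found by the root mean square distance between profiles over the 4 lines, each centred on its own mean. For IGF2BP1 these were NETO1, a glutamate receptor accessory protein (distance 0.07), CYB5R2, a cytochrome b5 reductase (0.18), and the semaphorin gene SEMA6A (0.22). In REH the 3 lay at 10.71, 10.98 and 10.31, against at most 5.28 in the other lines. For IGF2BP2 they were F13A1, the coagulation factor XIII A chain (0.36), the adhesion receptor ADGRG7 (0.39) and the histamine receptor HRH4 (0.52), which lay at 10.18, 9.65 and 8.76 in RS4;11. For LIN28B they were the homeobox gene HLX (0.05), the flippase gene ATP10A (0.09) and the glycosyltransferase gene GBGT1 (0.14). HLX was at 9.06 in RS4;11 and 8.44 in SEM, against 6.68 in NALM6 and 7.06 in REH. With 4 lines, such likeness is a description of these arrays only.

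The let-7 genes themselves were mostly dim, and the array reads their precursor or host transcript and not the mature microRNA. Of 20 let-7 genes and host transcripts listed, 15 had a probe set of their own, and 9 of these were dim, beside 8118 of all 18377 genes. None of the 15 rose or fell (limma, adjusted p over all genes), beside 0.0218% of all genes. With so few genes passing in the whole table, a list with none is not thereby shown to be unchanged. The median difference was 0.12, against 0.01 over all genes, but it was 0.0042 without REH and 0.0065 without RS4;11. At an unadjusted p under 0.05, 2 of the 15 were lower and 0 higher, and 9.39% of all genes passed in either direction. The 2 lower ones were MIR99AHG and MIRLET7BHG, host transcripts of let-7c and of let-7a-3 and let-7b. MIR99AHG was at 6.50 in RS4;11 and 6.06 in SEM, against 8.17 in NALM6 and 7.38 in REH (difference -1.50, limma SE 0.36, adjusted p = 0.435). The groups did not overlap and NALM6 was the highest line. MIRLET7BHG was at 5.17 and 4.98 in RS4;11 and SEM, against 5.93 and 6.04 in NALM6 and REH (difference -0.91, limma SE 0.12, adjusted p = 0.279). The 2 shared probe sets of that locus did not follow it. The one for MIRLET7B and MIRLET7BHG was at 6.53 and 6.56 in RS4;11 and SEM, against 6.36 and 6.16 in NALM6 and REH, a difference of 0.29 in the other direction with groups that did not overlap. The one for MIRLET7A3 and MIRLET7BHG differed by -0.06, with groups that overlapped. MIRLET7C, inside MIR99AHG, was at 4.50 and 4.19 in RS4;11 and SEM, against 5.18 and 4.52 in NALM6 and REH.

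MIRLET7G had the widest span of the let-7 genes, at 8.08 in RS4;11 and 7.18 in SEM, against 7.05 in NALM6 and 5.55 in REH (difference 1.33, limma SE 0.68, adjusted p = 0.676). REH was 1.50 or 2.83-fold below the next line, while SEM and NALM6 differed by little. WDR82, the protein-coding gene that holds let-7g, was likewise lowest in REH, at 11.01 and 10.97 in RS4;11 and SEM, against 10.92 and 10.02 in NALM6 and REH. The other let-7 genes differed less. The differences were 0.27 for MIRLET7A1, 0.29 for MIRLET7I, 0.17 for MIRLET7A2, 0.16 for MIRLET7D, 0.14 for MIR98 and 0.12 for MIRLET7F1. MIRLET7F2 and MIRLET7E differed by -0.04 and -0.01. Mature let-7, the form that falls when LIN28 acts, was not measured here.

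**Figure D3:**
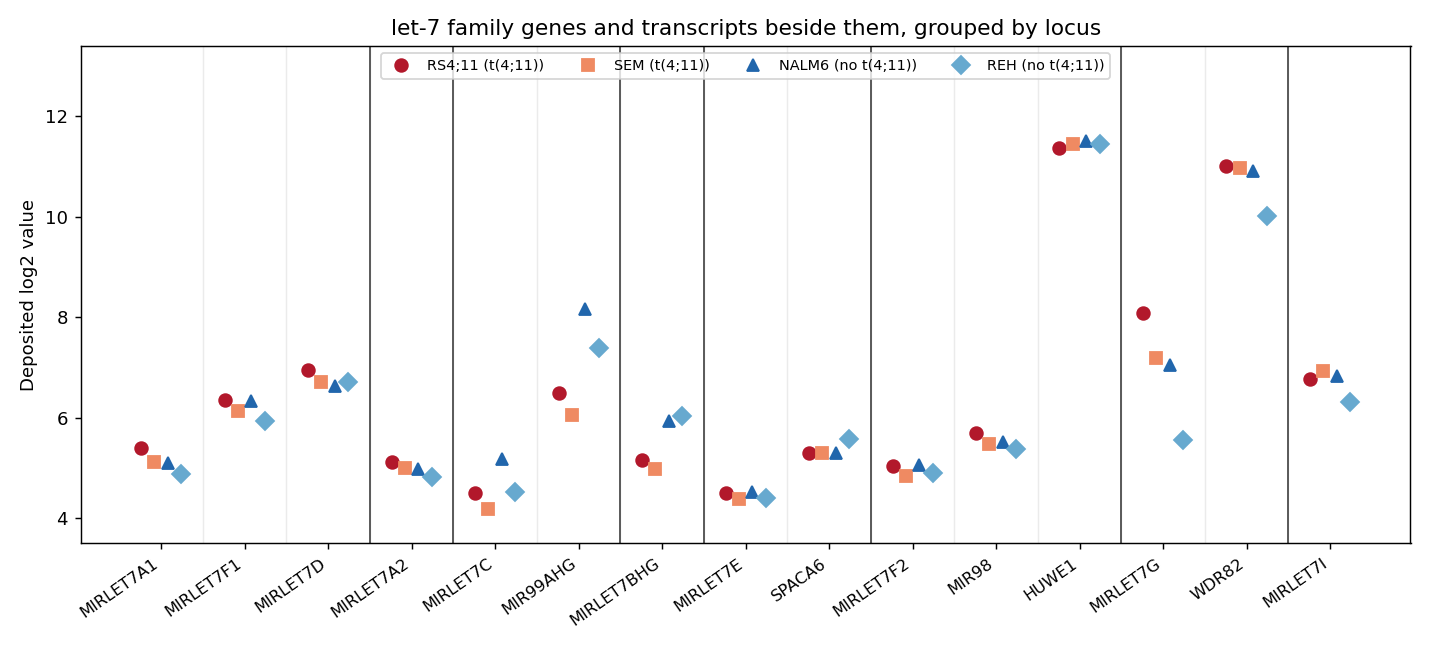
Deposited log2 values (y axis) of the 15 let-7 genes and host transcripts with a probe set of their own (x axis), grouped by locus between dark lines, with 1 point per line and no error bars. MIR99AHG and MIRLET7BHG, on the probe sets that carry 1 symbol, are lower in the translocation lines RS4;11 and SEM, and MIRLET7G and WDR82 are lowest in REH.

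No gene of the machinery that processes let-7 or acts with it rose or fell by limma, of 22 listed and measured, beside 0.0218% of all genes. The median difference was 0.03, and it was -0.027 without REH and -0.0063 without RS4;11. In 17 of the 22 the groups differed by less than 0.5, or 77.3%, beside 81.6% of all genes. TUT4, TUT7 and DIS3L2, the enzymes of the decay route described for LIN28A, differed by -0.16, 0.16 and -0.03. DICER1, which cuts the precursor, was at 11.64 in both RS4;11 and SEM, against 11.11 in NALM6 and 11.15 in REH (difference 0.51, limma SE 0.08, adjusted p = 0.327). The largest differences were -0.87 for the RNA-binding gene MSI2 (limma SE 0.45), 0.66 for the Argonaute gene AGO4 (limma SE 0.29) and -0.56 for the silencing cofactor TNRC6C (limma SE 0.10). Single lines also differed within the list. AGO2, the Argonaute protein that cuts targets, was at 10.45 in RS4;11 and 9.82 in SEM, against 9.37 in NALM6 and 10.54 in REH, a span of 1.17 with groups that overlapped. MSI2 spanned 1.57 over the lines and AGO4 1.08. Unadjusted, 2 genes of this list were higher and 2 lower at a p under 0.05, of 22, beside 9.39% of all genes.

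Known let-7 targets other than the members also showed no common direction. Of 25 listed, 22 were measured, and none rose or fell by limma, beside 0.0218% of all genes. At an unadjusted p under 0.05, 2 were higher and 1 lower, beside 9.39% of all genes in either direction. The median difference was 0.14. Without REH that median was 0.084. The phosphatase gene CDC25A was at 9.76 in RS4;11 and 9.68 in SEM, against 9.68 in NALM6 and 8.11 in REH, so that REH alone was low. The cyclin gene CCND2 was at 4.64 and 4.57 in RS4;11 and SEM, against 4.54 and 6.34 in NALM6 and REH, so that REH alone was high. NME6 was at 8.22 and 8.38 in RS4;11 and SEM, against 7.92 and 7.04 in NALM6 and REH (difference 0.82, limma SE 0.36, adjusted p = 0.623). MYC, a target of let-7 and a message bound by IGF2BP proteins, was at 11.90 in both RS4;11 and SEM, against 12.43 in NALM6 and 11.76 in REH.

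No measured gene of the list around the m6A mark that IGF2BP proteins read passed limma, beside 0.0218% of all genes. Of 18 writers, erasers and other readers, 15 were measured, none rose or fell by limma, 13 differed by less than 0.5 (86.7%, beside 81.6% of all genes), and the median difference was -0.07. It was -0.12 without NALM6 and -0.11 without REH. At an unadjusted p under 0.05, 1 was higher and 1 lower, beside 9.39% of all genes. YTHDF3, a reader, was at 11.37 in RS4;11 and 11.18 in SEM, against 10.53 in NALM6 and 10.77 in REH (difference 0.62, limma SE 0.14, adjusted p = 0.426). HNRNPA2B1, another reader, differed by -0.44 (limma SE 0.11) and the writer subunit gene ZC3H13 by -0.85 (limma SE 0.31). ALKBH5, an eraser, was highest in REH at 9.82, against 9.27 to 9.40 in the other lines. RBM15B, a writer subunit, was lowest in REH at 6.96, against 8.10 to 8.41 in the other lines, and ZC3H13 spanned 1.37.

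Of 21 transcripts that IGF2BP proteins are known to bind, 17 were measured, and none rose or fell by limma, beside 0.0218% of all genes. At an unadjusted p under 0.05, 1 was higher and 0 lower, beside 9.39% of all genes. The median difference was 0.13. Without REH that median was 0.090. The largest group difference of the list was that of CD44, the hyaluronan receptor, at 11.01 in RS4;11 and 11.08 in SEM, against 6.37 in NALM6 and 5.98 in REH (difference 4.87, limma SE 0.17, adjusted p = 0.0587). With dim genes left out before the fit, CD44 passed (limma, adjusted p = 0.0454). That filter kept CD44 only through its values in the translocation lines, since NALM6 and REH lay below 6.75. The pass is therefore no added support for the difference. FSCN1, an actin-bundling protein, was lowest in NALM6, at 8.35 in RS4;11 and 9.07 in SEM, against 5.69 in NALM6 and 8.05 in REH. PDPN, a mucin-type membrane protein, was high in RS4;11 alone, at 8.97, against 5.55 in SEM, 4.88 in NALM6 and 4.94 in REH, the same line in which IGF2BP2 was high. BTRC, a ubiquitin ligase subunit, was at 7.96 and 7.21 in RS4;11 and SEM, against 8.09 and 8.58 in NALM6 and REH. ACTB, whose message IGF2BP1 carries, was at 12.84 and 12.85 in RS4;11 and SEM, against 12.82 and 12.84 in NALM6 and REH.

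Of 21 other oncofetal, fetal globin and pluripotency genes listed, 16 were measured. In 10 of these every line lay below the median of all gene values, beside 8118 of all 18377 genes. None of the 16 rose or fell by limma, beside 0.0218% of all genes. At an unadjusted p under 0.05, 1 was higher and 0 lower, beside 9.39% of all genes. The median difference was 0.06, but 0.0042 without RS4;11. TPBG, the trophoblast antigen 5T4, was at 7.26 in RS4;11 and 8.92 in SEM, against 5.89 in NALM6 and 5.61 in REH (difference 2.34, limma SE 0.66, adjusted p = 0.489). It was the 1 gene of this list with both translocation lines at least 2-fold above both others, beside 0.963% of all genes. SALL4, a stem cell zinc finger gene, was at 8.22 and 6.87 in RS4;11 and SEM, against 5.22 and 7.25 in NALM6 and REH. PLAG1, an oncofetal zinc finger gene, was lowest in SEM, at 6.51, against 7.88 to 8.88 in the other lines. PEG10 had the widest span of the list, 4.91, with groups that overlapped. It was at 7.60 in RS4;11 and 9.91 in SEM, against 5.84 in NALM6 and 10.75 in REH. The pluripotency genes SOX2, DPPA4 and L1TD1, often seen with LIN28A, were at most 5.15.

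Among other high mobility group genes 13 of 15 were measured, and none rose or fell by limma, beside 0.0218% of all genes. At an unadjusted p under 0.05, 1 was higher and 0 lower, beside 9.39% of all genes. The median difference was 0.02. It lay between 0.061 and 0.12 without RS4;11, NALM6 or REH in turn. HMGXB3 was at 9.74 in RS4;11 and 9.84 in SEM, against 8.55 in NALM6 and 9.08 in REH (difference 0.97, limma SE 0.22, adjusted p = 0.425). TOX, a lymphocyte HMG-box gene, was high in SEM alone, at 8.23, against 4.81 in RS4;11, 4.74 in NALM6 and 4.45 in REH. HMGN5 was also highest in SEM, at 9.23, against 8.31 to 8.57 in the other lines. The abundant nucleosome-binding genes HMGB2, HMGN1 and HMGN2 differed by 0.01, 0.02 and 0.15 between the groups.

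**Figure D4:**
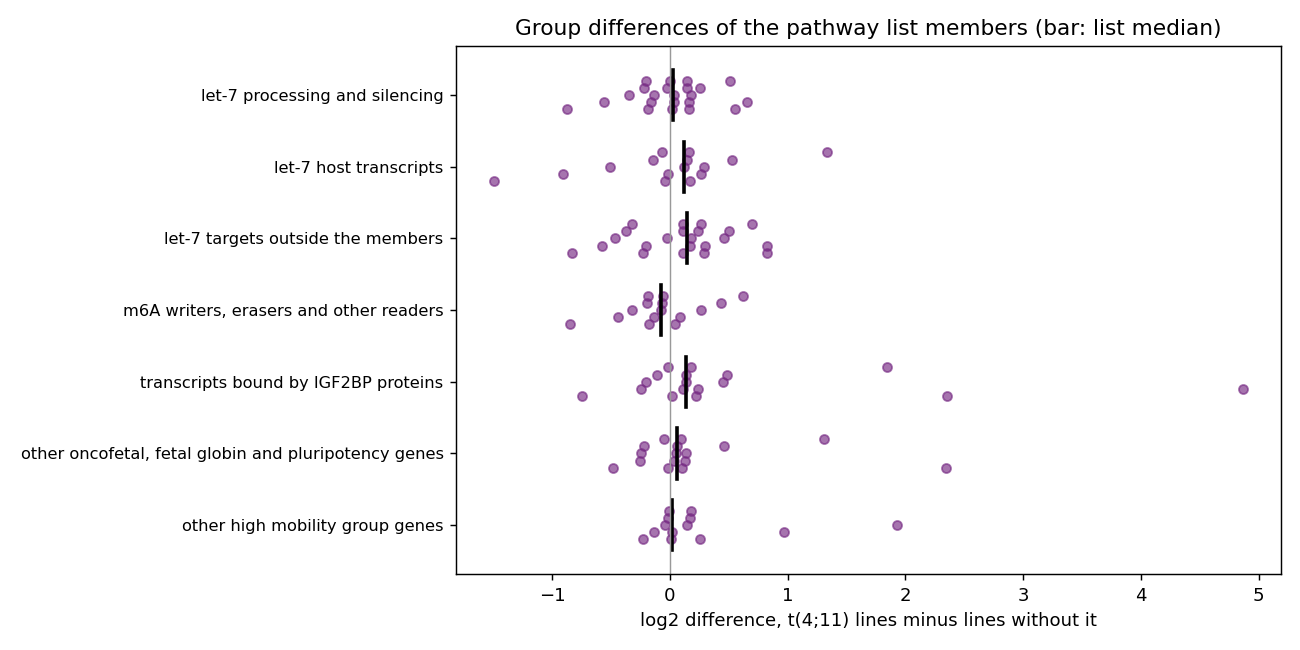
Log2 difference between the t(4;11) lines and the lines without it (x axis) for each measured gene of the 7 pathway lists (y axis, 1 row per list), with 1 point per gene, vertical offsets for legibility and a black bar at the list median. The medians lie between -0.07 and 0.14, and the point farthest out is CD44 at 4.87.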

How the data were processed

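The deposited values are log2 probe-set levels that the authors made with RMA and Partek, per the submitters' processing notes (their versions: not given in the sources used here). That the scale is log2 was inferred from the values. RNA was labelled with an Affymetrix whole-transcript kit, per the labels' protocols. No sequencing data were used here.

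Probe sets with 1 symbol in the platform annotation (19310) were named. For a gene with several, the probe set of highest mean was kept, leaving 18377 genes. Groups of 2 lines were compared with limma 3.58.1 in R 4.3.3 over all genes, with Benjamini-Hochberg adjustment and no covariate. P-values are two-sided and rest on the variation among lines, including that of culture and array. An exact permutation test of 2 lines against 2 cannot go below p = 0.333. The number of arrays limits precision. The procedure was tested on simulated data. Tables and plots used Python 3.11.15, pandas 2.3.3 and matplotlib 3.10.9. MicroRNA sequences and gene order come from RefSeq (GRCh38.p14).

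The members, lists and tests were chosen with earlier results of these data known. From each list the text names the 3 largest differences, the widest gap of 1 line above the next, any gene that passed, and every let-7 gene. It also names the 3 nearest profiles of members that span at least 1, and neighbours. The antisense genes, ELAC2, DICER1, AGO2, RBM15B, BTRC, TUT4, TUT7, DIS3L2, MYC, ACTB, WDR82, PEG10, SOX2, DPPA4, L1TD1, HMGB2, HMGN1, HMGN2 and the markers were named after their values were seen. Alternatives were repeated quantile normalization, median centring, averaged probe sets, no dim genes, an intensity trend, robust eBayes, other thresholds and leaving out each line.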

Additional observations from a re-analysis of the deposited data

How the results depend on the processing

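Over scalings, probe-set choice and the filter on dim genes, 26 of 27 member differences kept their sign. The exception was LIN28A with centred arrays, at -0.01, which is within its error. After repeated quantile normalization LIN28A was at 4.94e-05. No member passed limma under any alternative run. The genes that passed numbered 4 over the whole table, 9 after repeated quantile normalization, 17 without dim genes, 12 over all probe sets, 42 at an adjusted p under 0.1, and 0 to 0 without each line in turn (1 residual degree of freedom, with the lone line of a group assumed to vary like the others). Genes separated 2-fold numbered 177 higher and 161 lower, 74 and 49 at 4-fold, and 342 to 542 and 342 to 681 without each line in turn. Genes at 2-fold above all other lines numbered 130 for RS4;11, 301 for SEM, 219 for NALM6 and 402 for REH. Centring of arrays gave list medians of -0.024 for let-7 processing genes and 0.0080 for other oncofetal genes. Removal of dim genes gave 0.21 for other oncofetal genes and 1 passing transcript bound by IGF2BP proteins, CD44. The filter kept CD44 only through its values in the translocation lines.

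Without each line in turn the list medians ran from -0.027 to 0.051 for let-7 processing genes, from 0.0042 (without REH) to 0.21 for let-7 genes and hosts, from 0.084 to 0.18 for let-7 targets, from -0.12 to -0.073 for m6A genes, from 0.090 to 0.18 for bound transcripts, from 0.0042 (without RS4;11) to 0.079 for other oncofetal genes and from 0.019 to 0.12 for other high mobility group genes. The differences ran from 1.57 to 2.12 for LIN28B and from 3.14 to 4.52 for the ELAC2 and HMGA2 probe set. No paired analysis was possible because nothing in the labels pairs a line of one group with a line of the other. Precision is limited by 1 array per line, and signal over background is unknown.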

Other observations

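Several list genes that were lowest in REH lie on the short arm of chromosome 3, a pattern noticed after the values were seen. WDR82 with MIRLET7G inside it, CDC25A and NME6 are among them. The span from CDC25A to WDR82 in RefSeq order has its ends set by genes already seen to be low in REH. Its 98 measured protein-coding genes, with CDC25A, NME6 and WDR82 included, had a median of -0.54 for REH minus the average of the remaining lines. That median was -0.06 over the 851 other measured protein-coding genes of chromosome 3 and -0.03 over all 18377 genes. REH was below that average in 82 of the 98 genes (83.7%), against 61.2% of the rest of chromosome 3 and 56.2% of all genes. It was the lowest line in 68 of them (69.4%), against 40.4% of the rest of the chromosome and 33.7% of all genes. In RS4;11, SEM and NALM6 the medians of the same 98 genes taken the same way were 0.13, 0.18 and 0.12. No test was run, and the cause was not tested.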
